A study of Bos taurus with 16 samples.

Results

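ENPEP, ANPEP and GGT1 encode peptide-splitting enzymes whose active sites face outward at the cell surface. They are followed here through every spot that the array's probe-to-gene table assigns to them. The table gave 8 spots, which are 4 cDNA clones printed as duplicates, out of 8448 clones and 16896 spots on the array. ENPEP (gene ID 504350) has 1 clone, on spots 7576 and 16024. ANPEP (404191) has 1 clone, on spots 2117 and 10565. GGT1 (615582) has 2 clones, called clone 1 (spots 2052 and 10500) and clone 2 (spots 7831 and 16279). All 4 could be tested among the 5537 clones that have a listed gene and a ratio for each RNA.

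The brush border is the carpet of microvilli on the cells of the proximal tubule, where filtered peptides are cut to amino acids that carriers then take up. Aminopeptidase A, the product of ENPEP, removes acidic residues from the amino end and turns angiotensin II into angiotensin III. Aminopeptidase N, the product of ANPEP (also CD13), removes mainly neutral residues. Gamma-glutamyltransferase 1 takes the glutamyl group off extracellular glutathione and leaves cysteinylglycine, a dipeptide that aminopeptidase N can split.

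The samples were 8 RNAs of cattle (Bos taurus) kidney, in 4 groups of 2, named replicate 1 and replicate K. The source labels read Kidney 1 or Kidney K at every round, without saying if the rounds start from the same RNA. Round 0 was total RNA without amplification, and rounds 1, 2 and 3 count the linear amplifications, in which RNA is copied by in vitro transcription. Each RNA was hybridised on 2 arrays with the dyes Cy3 and Cy5 exchanged, 16 arrays in all, against a reference RNA. The reference had itself undergone 2 rounds, so only at round 2 did kidney and reference match in the number of rounds. At rounds 0, 1 and 3 tissue and number of amplifications cannot be told apart in the ratios. The labels give no breed, age or sex, do not say of what tissue the reference is, and do not say if replicates 1 and K are different animals. The p-values therefore measure only the spread between these RNAs.

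Values are log2 ratios of kidney over reference, minus the median ratio of the array, so that 0 is the typical clone, and above or below the reference means above or below that level. The sources used here do not say which dye stands on top in the deposited ratios. Cy5 over Cy3 was taken as likely because nephron genes other than the 3 described here then lie above the reference: the median of their 14 to 16 clones with a ratio was 2.36 to 3.28 over the 16 arrays. With the opposite direction all signs given here would be exchanged. That 3 of 3 proximal tubule clones and 10 of 13 clones of other nephron segments passed above the reference at round 0 (limma, adjusted p under 0.05) restates this choice, since they set the direction. In the same test 1088 of all 5537 tested clones were above and 1054 below, together 38.7%. Of 7 endothelial clones, 6 were above. Of 11 stromal clones, 8 were below and 2 above, DCN at 0.99 and MGP at 5.72. Of 8 immune clones, 1 was above and 4 below, and of 3 adrenal clones 2 were below. The 1 podocyte clone was called on neither side, and the blood and fat lists had 0 clones on the array. What share of these other cells enters the ratios of the peptidases was not tested. An array gave a ratio for 14182 to 16057 spots, and duplicate spots correlated at 0.496 to 0.822.

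ENPEP was among the clones farthest above the reference at every round. At round 0 its ratio was 5.60 in replicate 1 and 5.55 in replicate K. At round 1 the ratio was 5.30 and 5.14, and at round 2 it was 5.39 and 5.32. At round 3 replicate 1 gave 5.49 and replicate K 4.96, the widest gap between its replicates. Replicate 1 was the higher at each round, and all 16 arrays lay between 4.16 and 6.06.

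**Figure D1:**
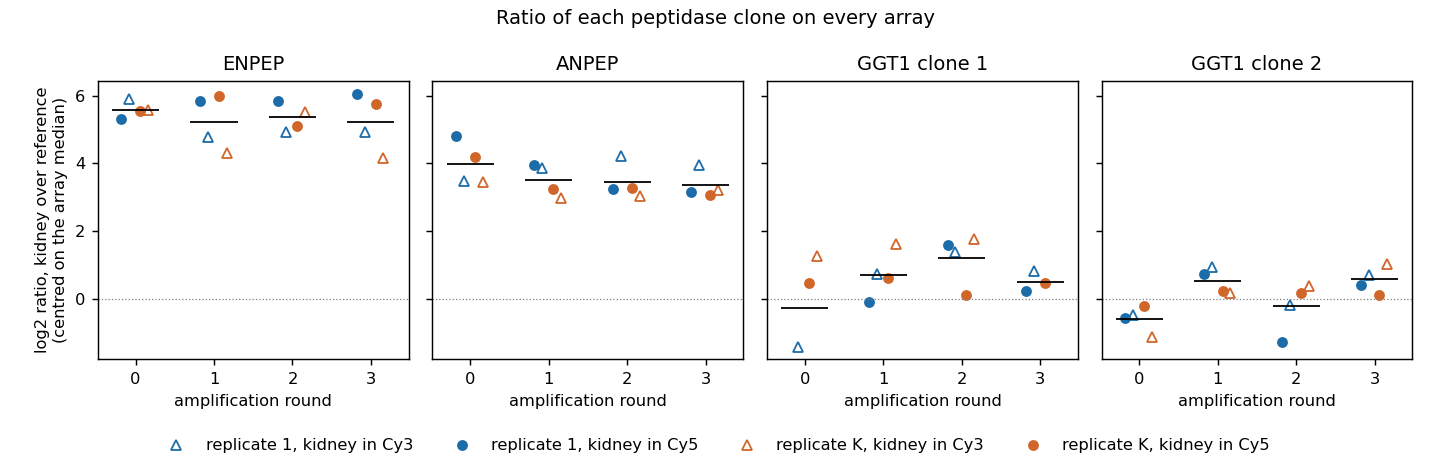
Log2 ratio of kidney over reference (vertical axis, centred on the array median) of each peptidase clone against the number of amplification rounds. Points are single arrays, circles with kidney in Cy5 and open triangles with kidney in Cy3, coloured by replicate, and the black bars are means of the 2 RNAs. ENPEP and ANPEP lie above 0 on all 16 arrays, and the GGT1 clones lie on both sides of 0.

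The ENPEP mean was 5.58 ± 0.04 (SD, n = 2) at round 0, a ratio 47.7 times that of the typical clone. Whether a kidney RNA held more cells with the enzyme or more of its RNA per cell cannot be told apart in such tissue extracts. Nor can tissue and amplification at round 0, since the reference had undergone 2 rounds. At rounds 1, 2 and 3 the ENPEP mean was 5.22 ± 0.12, 5.35 ± 0.05 and 5.22 ± 0.37. It passed the limma test against the reference at each round (adjusted p = 4.81e-05, 9.49e-05, 8.49e-05 and 0.000106). Among the 5537 tested clones its ratio had rank 5 from the top at round 0 and ranks 2, 1 and 1 after amplification. With the ratios turned these would be the same ranks from the bottom.

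ANPEP came second among the 4 clones, with less agreement between replicates. Its ratio at round 0 was 4.14 in replicate 1 and 3.82 in replicate K. Round 1 gave 3.89 and 3.10, round 2 gave 3.73 and 3.15, and round 3 gave 3.56 and 3.14. As with ENPEP, replicate 1 was the higher at each round, and all 16 arrays lay above the reference, between 2.97 and 4.80. The means were 3.98 ± 0.23 (SD, n = 2), 3.50 ± 0.56, 3.44 ± 0.41 and 3.35 ± 0.30, and each passed the limma test against the reference (adjusted p = 0.000167, 0.000307, 0.000309 and 0.000373). Ranks from the top were 27, 25, 25 and 21, or from the bottom with the ratios turned.

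The GGT1 clones had round means from -0.61 to 1.20. At round 0, clone 1 stood at -1.42 in replicate 1 and 0.87 in replicate K, on opposite sides of the reference. The replicate 1 value rests on 1 spot of 1 array, since the array with kidney in Cy5 gave no ratio. After amplification its RNAs stood at 0.30 and 1.11 (round 1), 1.48 and 0.92 (round 2), and 0.52 and 0.46 (round 3). The round 3, replicate K value comes from the array with kidney in Cy5 alone. All 6 amplified RNAs were thus above 0. The lowest, round 1 replicate 1, averaged a Cy5 array at -0.11 and a Cy3 array whose spots read -0.936 and 2.365. How many of all clones stood above 0 in these 6 RNAs was not counted.

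GGT1 clone 2 had a ratio on every array. It stood at -0.53 and -0.69 at round 0, 0.83 and 0.20 at round 1, -0.74 and 0.28 at round 2, and 0.56 and 0.58 at round 3. Its round 0 RNAs were below the reference, those of rounds 1 and 3 above it, and those of round 2 on either side. The round 2, replicate 1 value rests on duplicate spots that differ widely. They read -1.19 and 0.83 on the Cy3 array and -2.09 and -0.50 on the Cy5 array. Without centring the round 0 mean of clone 2 was 0.07 and no longer below. The clones of this gene thus gave means of 1.20 ± 0.39 and -0.23 ± 0.72 (SD, n = 2) at round 2, while at round 3 they gave 0.49 ± 0.04 and 0.57 ± 0.02.

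Against the reference, 2 of the 4 clones passed at every round (ENPEP and ANPEP, both above), beside 38.7%, 37.8%, 35.2% and 35.1% of all tested clones, on either side, at rounds 0 to 3. The GGT1 clones passed at no round (limma, adjusted p from 0.115 to 0.703 for clone 1 and from 0.124 to 0.545 for clone 2). The smallest of these, clone 1 at round 2, became 0.0206 when either RNA of round 0 was left out, with the same mean of 1.20.

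**Figure D2:**
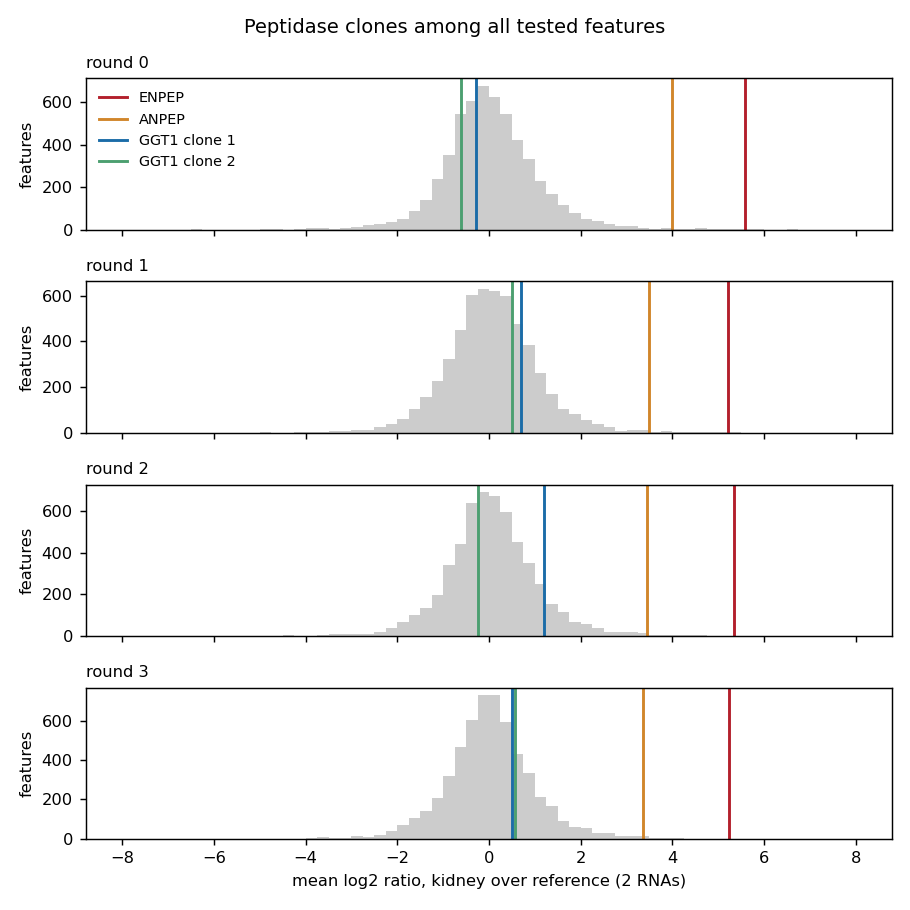
Histograms of the mean log2 ratio of kidney over reference (horizontal axis, 2 RNAs, bins of 0.25) for the 5537 tested clones at each round, with the number of clones on the vertical axis. Coloured lines mark the peptidase clones: ENPEP between 5.22 and 5.58 and ANPEP between 3.35 and 3.98 stand in the upper tail at each round, and the GGT1 clones stand in the body.

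The study asks what amplification does to such ratios, and the first comparison is of each amplified round with round 0. None of the 4 clones passed at round 1, 2 or 3 (limma, Benjamini-Hochberg), beside 13.3%, 11.2% and 11.6% of all tested clones. At an unadjusted p under 0.05 there was 1 of the 4 at round 1, 0 at round 2 and 1 at round 3, in each case GGT1 clone 2, beside 31.8%, 30.9% and 31.6% of all tested clones. All 4 were also uncalled by the moderated F test over the rounds, which called 7.59% of clones (adjusted p = 0.57 for ENPEP, 0.504 for ANPEP, 0.445 and 0.157 for GGT1 clones 1 and 2). No exact test of 2 against 2 RNAs can give a p below 0.333.

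For ENPEP the change against round 0 was -0.36 ± 0.24 (SE), -0.22 ± 0.24 and -0.35 ± 0.24 at rounds 1, 2 and 3. The 95% intervals ran from -0.93 to 0.22, from -0.80 to 0.35 and from -0.93 to 0.22, with limma adjusted p of 0.34, 0.563 and 0.359. Each interval holds 0, and none reaches a change of 1 on the log2 scale. Of all tested clones, 33.7%, 38.5% and 32.5% had a lower change (a higher one, with the ratios turned). On the round 1, replicate 1, Cy3 array ENPEP had a ratio on 1 spot only. Without that array its round 1 mean was 5.48, against 5.58 at round 0.

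For ANPEP the change was -0.48 ± 0.36, -0.54 ± 0.36 and -0.63 ± 0.36 (adjusted p = 0.397, 0.354 and 0.286, limma). The intervals ran from -1.35 to 0.39, from -1.41 to 0.33 and from -1.50 to 0.24, so that a fall of more than 1 log2 unit lies within them, as does no change. Of all tested clones, 28%, 24.6% and 21.8% had a lower change (likewise a higher one, if turned).

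The GGT1 estimates had the other sign. Clone 2 changed by 1.12 ± 0.38, 0.38 ± 0.38 and 1.17 ± 0.38 (adjusted p = 0.104, 0.544 and 0.0939, limma). Its intervals for rounds 1 and 3 ran from 0.19 to 2.04 and from 0.25 to 2.10, before any correction for the number of clones. Clone 1 changed by 0.98 ± 0.72, 1.48 ± 0.72 and 0.77 ± 0.72, with intervals as wide as -0.75 to 2.72 at round 1 (adjusted p = 0.388, 0.221 and 0.507). Without replicate 1 of round 0, whose value rests on 1 spot, these became -0.16, 0.33 and -0.38. On each of the 7 arrays with both spots of clone 1, the higher-numbered spot gave the larger ratio, by up to 3.30. At round 0 both Cy3 arrays gave the lower-numbered spot alone. At round 1 both arrays of replicate K gave the higher-numbered spot alone. How much of the change of clone 1 comes from this shift of spots was not tested. The 3 comparisons share their round 0 RNAs. Whether the changes of GGT1 differ from those of ENPEP and ANPEP was not tested.

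**Figure D3:**
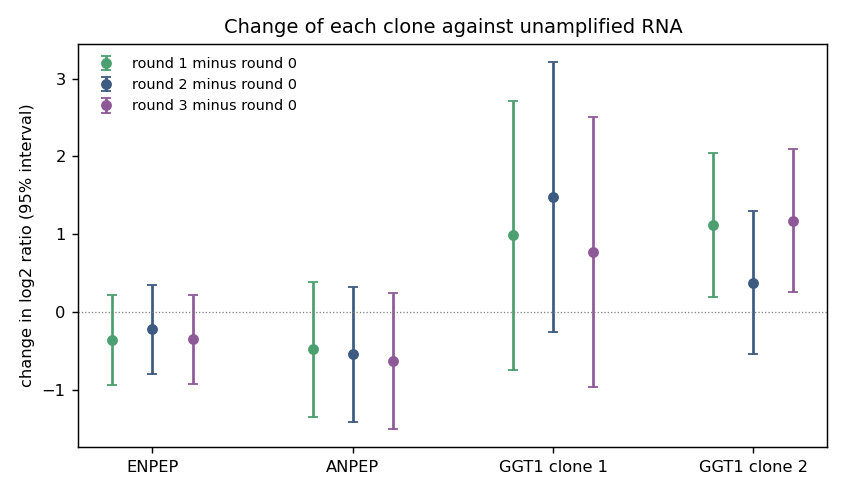
Change in log2 ratio against round 0 (vertical axis) of each peptidase clone at rounds 1, 2 and 3, with the 95% interval of the limma fit to 8 RNAs. The ENPEP and ANPEP estimates lie below 0 and those of GGT1 above, and the intervals that leave out 0 are those of GGT1 clone 2 at rounds 1 and 3.

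Replicates of an amplified round and round 0 did not overlap for ENPEP at rounds 1, 2 and 3, for ANPEP at rounds 2 and 3, for GGT1 clone 1 at round 2, and for GGT1 clone 2 at rounds 1 and 3. That is 2 of 4 clones at round 1 and 3 of 4 at rounds 2 and 3, beside 64%, 64.3% and 65.1% of all tested clones.

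The sign of the change against round 0 differed between the dyes for ENPEP at rounds 1, 2 and 3, for ANPEP at rounds 2 and 3 and for GGT1 clone 2 at round 2. GGT1 clone 1 was not judged. It lacked a ratio on the round 0, replicate 1, Cy5 array and the round 3, replicate K, Cy3 array. The difference between the dyes itself was not tested. ENPEP had its highest Cy3 ratios at round 0, where the arrays with kidney in Cy3 gave 5.89 and 5.56, against 4.16 to 5.52 in the amplified RNAs. With kidney in Cy5 it was 5.32 and 5.54 at round 0 and 5.11 to 6.05 after amplification. The change against round 0 was accordingly 0.47, 0.05 and 0.48 from the Cy5 arrays and -1.19, -0.49 and -1.18 from the Cy3 arrays. None of these 6 passed limma, with adjusted p from 0.0651 to 0.945. Of all clones, 207, 252 and 475 passed on Cy5 arrays and 1009, 507 and 391 on Cy3 arrays at rounds 1, 2 and 3.

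For ANPEP the negative changes came from the Cy5 arrays. The Cy5 arrays gave 4.80 and 4.19 at round 0 and 3.06 to 3.93 in the amplified RNAs, without overlap. The Cy3 arrays gave 3.49 and 3.45 at round 0 and 2.97 to 4.22 after amplification. Changes were -0.91, -1.25 and -1.38 from Cy5 arrays and -0.06, 0.16 and 0.12 from Cy3 arrays, again with none called (limma, adjusted p from 0.0516 to 0.947). GGT1 clone 2 changed by 0.88, -0.16 and 0.66 on Cy5 arrays and by 1.35, 0.91 and 1.68 on Cy3 arrays, of which the last had a limma adjusted p of 0.0497. That call stands beside 391 of all clones on Cy3 arrays at round 3. The median gap between the 2 arrays of a dye swap was 0.99 for ENPEP, 0.51 for ANPEP, 0.81 for GGT1 clone 1 (6 swaps) and 0.25 for GGT1 clone 2, against 0.62 over all tested clones.

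**Figure D4:**
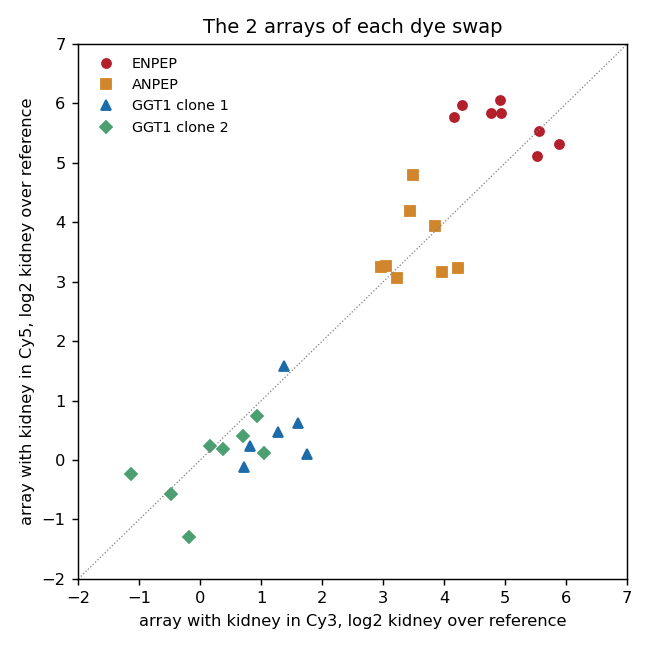
Log2 ratio of kidney over reference on the array with kidney in Cy5 (vertical axis) against that on the array with kidney in Cy3 (horizontal axis), 1 point per RNA and peptidase clone, with the line of equality. ENPEP has 5 of 8 points above the line, by up to 1.69, and GGT1 clone 1 has 1 of 6 above it.

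Centring also bears on the aminopeptidases. Without it, the median clone itself moved by -1.04 at round 1 (-0.08 and -0.34 at rounds 2 and 3), and ENPEP and ANPEP then passed as lower at round 1, at -1.37 and -1.49 (limma, adjusted p = 0.0429 and 0.0321). In that fit 1829 of all tested clones passed as lower at round 1 and 39 as higher. The 4 arrays of round 0 were also deposited in another number format: 100% of their ratios carry 3 decimals, against 83.2% to 88.2% on the 12 amplified arrays. How they were processed and their lack of amplification therefore cannot be told apart.

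No peptidase clone passed between amplified rounds. For round 2 against 1, round 3 against 1 and round 3 against 2, ENPEP changed by 0.14, 0.01 and -0.13, each ± 0.24 (SE), and the 95% interval of the second ran from -0.57 to 0.58. The same comparisons gave -0.06, -0.15 and -0.09 for ANPEP, each ± 0.36. They gave 0.49, -0.22 and -0.71 for GGT1 clone 1, each ± 0.72. GGT1 clone 2 had the widest swing among them, with -0.74, 0.06 and 0.80, each ± 0.38 (limma adjusted p = 0.563, 0.946 and 0.74). Of all clones, 0%, 0.289% and 0% passed, in that order. In limma 569, 1176 and 401 of the 5537 clones, and 0 of the 4, had an unadjusted p under 0.05. The round 2 mean of GGT1 clone 2 includes the array with the widest gap between its duplicate spots, 2.02.

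Precision differed between the clones. The SD between replicates, pooled over rounds, was 0.20 for ENPEP and 0.39 for ANPEP, against a median of 0.32 over all tested clones. It was 0.88 for GGT1 clone 1, at percentile 91.2 of all clones, and 0.43 for clone 2. The median gap between duplicate spots was 0.35 for ENPEP, 0.41 for ANPEP, 1.35 for GGT1 clone 1 and 0.58 for clone 2, against 0.29 over all. GGT1 clone 1 had a ratio in 21 of its 32 spot readings, ENPEP and GGT1 clone 2 in 31, and ANPEP in 32.

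By the root mean square distance of the ratios over the 8 RNAs, the clones most like ENPEP were those of S100G, a calcium-binding protein (0.80), AQP1, a water channel (0.88), and LOC338050 (1.14). This distance counts the level as well as the course over RNAs. Pearson r of ENPEP with these clones was 0.91, 0.18 and 0.77. Most like ANPEP were PDZK1, a scaffold under the brush border membrane (0.36), the secreted protein RARRES2 (0.47) and CLRN3 (0.48), with r of 0.54, 0.41 and 0.27. The PDZK1 clone stood at 4.14, 3.76, 3.50 and 3.52 at rounds 0 to 3. Nearest to GGT1 clone 1 were DENND2A (0.41), ZFAND3 (0.45) and ITPKC (0.49), and to clone 2 MEPCE (0.30), CPNE3 (0.33) and RNASEK (0.34). The GGT1 clones had no neighbour in common among these, the 3 nearest of 5441 candidates for each. Their r with these neighbours ran from 0.82 to 0.90. It uses the same 8 RNAs by which the neighbours were chosen, so it is not separate evidence of a shared course.

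Of 6 clones listed as other surface enzymes (DPP4, MME, ACE and ENPP1), 4 passed above the reference and 0 below at each round. Of all clones, 38.7%, 37.8%, 35.2% and 35.1% passed on either side. The list medians were 2.13, 1.76, 1.68 and 1.57. Each clone of ENPP1 was among those above at rounds 1, 2 and 3. DPP4, which removes dipeptides ending in proline, stood at 4.53, 4.54, 4.01 and 2.86. Its change at round 3 was -1.67 ± 0.42 (limma adjusted p = 0.0517). MME, or neprilysin, was the 1 clone of the 6 that passed against round 0: from 3.38 at round 0 its changes were -1.05, -1.40 and -1.43 (limma adjusted p = 0.0255, 0.014 and 0.0135). A separate MME clone had changes of -0.67, -3.05 and -1.51 and was not called. A clone of ENPP1, a surface enzyme that splits nucleotides, stood at 2.16 at round 0 and had changes of -0.65, -0.79 and -0.70, not called. The other ENPP1 clone (0.46 at round 0) had changes of 1.55, 1.54 and 1.22, and that of ACE, which makes angiotensin II, had 1.91, 1.02 and 1.58 from -1.38, all uncalled. The 1 call of 6 at each round stands beside 13.3%, 11.2% and 11.6% of all clones. The list medians were -0.32, -0.65 and -1.06 at rounds 1, 2 and 3, beside -0.03, 0.01 and 0.00 over all clones.

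In the glutathione cycle 1, 2 and 1 of 7 clones fell and 0 rose at rounds 1, 2 and 3, with 13.3%, 11.2% and 11.6% of all clones called. GGT5, a relative of GGT1, fell at each, with changes of -1.39, -1.86 and -1.57 from 1.22 (limma adjusted p = 0.0336, 0.0189 and 0.0261). The dipeptidase CNDP2, which can also cleave cysteinylglycine, fell by 0.83 at round 2 on 1 of its clones. Its other clone stood at 2.51 at round 0 and had a change of -3.18 at round 3 (adjusted p = 0.0698). List medians of the change were -0.19, -0.83 and -0.46.

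Of 20 clones of intracellular and other peptidases, 1, 1 and 0 rose and 4, 3 and 3 fell, again beside 13.3%, 11.2% and 11.6% called of all clones. RNPEPL1, an aminopeptidase relative, fell on 1 clone, with changes of -2.14, -2.23 and -2.24, while another had changes of 2.12, 2.51 and 2.84 and was not called. XPNPEP1, which cuts before proline, had 0.34, 0.43 and 0.69 from 1.20 on 1 clone, not called. METAP2, which removes the first methionine, fell, with changes of -1.09, -1.24 and -1.17. DPP7, a dipeptidyl peptidase of vesicles, had changes of -1.36 and -1.56 at rounds 1 and 3 that passed. PEPD, which splits dipeptides ending in proline, rose by 1.09 at round 1, and XPNPEP3 by 0.90 at round 2. The list medians were -0.11, 0.24 and -0.03.

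The renin-angiotensin list had 2 clones, ACE and ATP6AP2 (0.48 at round 0), and neither passed against round 0. Of 5 clones of amino acid and peptide carriers, 2, 1 and 1 rose and 0, 0 and 1 fell, where 13.3%, 11.2% and 11.6% of all clones were called. SLC7A7, which moves cationic amino acids out of the tubule cell, rose by 1.03, 1.24 and 1.35 from 2.85. Its partner SLC3A2 rose by 1.25 at round 1, and SLC36A2 fell by 1.77 at round 3 on 1 of its clones. Of 6 scaffold clones none rose and 0, 1 and 1 fell, beside the same shares of all clones: DAB2, an endocytic adaptor, fell, with changes of -1.54 and -2.40 at rounds 2 and 3. PDZK1 had changes of -0.38, -0.64 and -0.62 and did not pass.

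**Figure D5:**
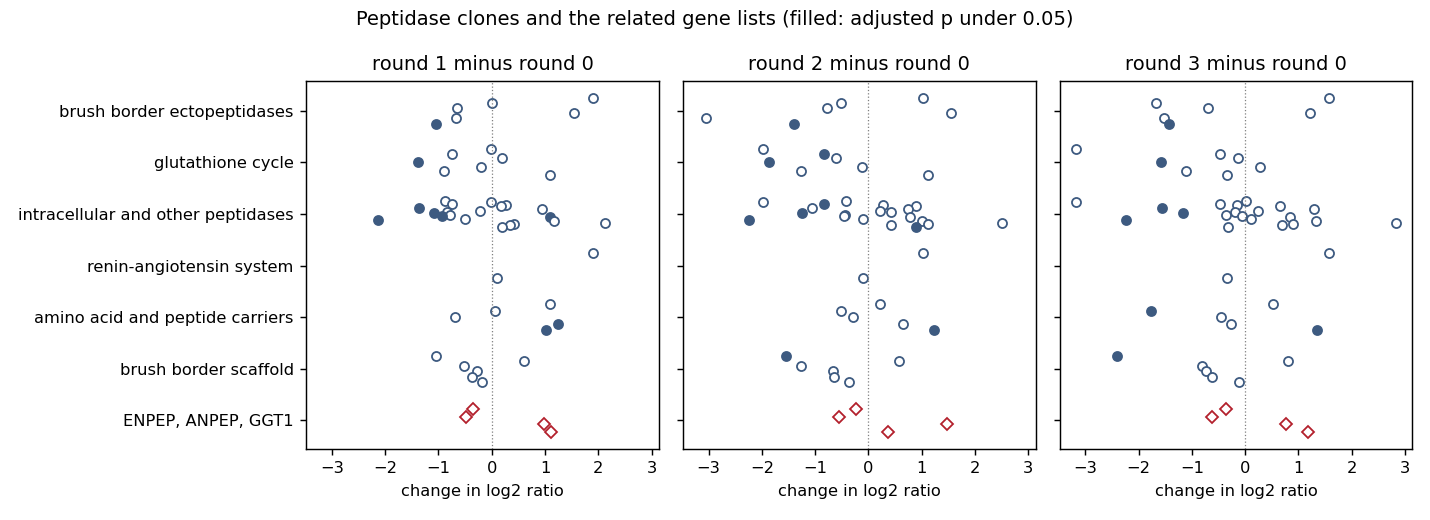
Change in log2 ratio against round 0 (horizontal axis) at rounds 1, 2 and 3 for the tested clones of 6 gene lists (blue circles) and the 4 peptidase clones (red diamonds). Filled symbols passed at adjusted p under 0.05; all red diamonds are open, and 9, 8 and 8 of the 43 list clones are filled, a clone of several lists being drawn in each.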

How the data were processed

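The deposited table gives, for 15 of the 16 arrays, log2 ratios of the 2 channels, the base being read from the values. The deposited column of the round 1, replicate 1, Cy3 array is called a score, because it mixes such ratios with numbers from -26 to 3827. Numbers over 10 in size, among them the recurring code 16.61, were set as missing. What scanner, background correction or scaling the authors used is not given in the sources used here. Arrays with kidney in Cy3 were turned, duplicate spots averaged, arrays centred on the median of the 5693 features with a listed gene, and the available arrays of a dye swap averaged to 1 value per RNA. Symbols came from the platform annotation (5598 features with 1 symbol, 95 with several, 2755 without a gene). Of the former, 5591 gene IDs were found in a current RefSeq gene list, none renamed.

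limma 3.58.1 (lmFit and eBayes, R 4.3.3) fitted a mean per round to 5537 features over 8 RNAs, with 4 residual and 2.4 prior degrees of freedom. Each comparison was adjusted over its features with the Benjamini-Hochberg method, at 0.05. The code was tested on simulated data. Signals were not used, so dim spots could not be filtered, and precision is limited by how many arrays there are. The members and gene lists were chosen with earlier results of these data known. From each list the text names the 2 largest called changes each way and up to 3 uncalled members with the round 0 ratio farthest from 0, and, for likeness, the 3 nearest genes. Alternatives covered centring, scaling, dyes, spots, missing values, feature filter, variance, samples fitted and single RNAs left out. Same-numbered replicates were not shown to pair across rounds: their residuals correlated at -0.046 to 0.169 over the 6 pairs of rounds.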

Additional observations from a re-analysis of the deposited data

How the results depend on the processing

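ENPEP and ANPEP passed above the reference at all 4 rounds under each alternative run (22 each), ENPEP at 4.53 to 6.25 and ANPEP at 3.10 to 4.66. Over all values of the 4 clones, 787 kept direction and side of the threshold, 9 newly passed and 48, none of them called in the main fit, changed sign. With the replicate block (not shown to be a true pairing) the count of peptidase clones called stayed 0 between any rounds and list clones called were 9, 9 and 9 against round 0. Requiring both arrays of every dye swap was chosen after seeing the data. It leaves out GGT1 clone 1.

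The peptidase count was 2 at round 1 without centring. Fitting the 16 arrays singly with a dye effect and RNA as a random block made it 1 at rounds 1 and 3 (GGT1 clone 2, limma adjusted p = 0.0208 and 0.0158), and 1 at round 3 on Cy3 arrays. In the 16-array fit the correlation between arrays of an RNA was estimated at -0.06. That fit thus counts the 2 arrays of a dye swap nearly as separate replicates. It called 1246 and 1265 of all clones at rounds 1 and 3, and Cy3 arrays called 391 at round 3. The list count at round 1 (main 9) was 19 without centring, 3 on Cy5 arrays, 4 without the round 1, replicate 1, Cy3 array, 4 and 5 with the lower or higher spot, and 0 when only these rounds were fitted. At round 2 (main 8) it was 1 without centring, 14 with 16 arrays, 4 on Cy5 arrays, 5 without that array, 4 with the higher spot and 1 from these rounds. At round 3 (main 8) it was 4 without centring, 15 with 16 arrays, 5 on either dye, and 5 from these rounds. Round 3 against 1 (main 0) gave 4 with 16 arrays and 4 when both arrays were needed. Leaving out 1 RNA gave 1 to 6, 0 to 7 and 2 to 10 at rounds 1, 2 and 3, moved by each RNA of the rounds compared and, at rounds 1 and 2, by those of round 3. Over all clones the counts ran from 2 to 1868, 24 to 1186 and 103 to 1265 (main 735, 619 and 643); without centring round 1 had 39 higher and 1829 lower, against 299 and 436. The causes were not tested.

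Signs that turned without centring were those of GGT1 clones 1 and 2 at round 0 (0.86 and 0.07 against the reference), clone 2 at round 2 (0.35), clone 1 from round 0 to 1 and 3 (-0.49 and -0.16) and 1 to 3 (0.33), clone 2 from 1 to 2 (0.17), and ANPEP from 1 to 2 and 3 (0.85 and 0.50). GGT1 clone 1 at round 2 was then called (1.78, limma adjusted p = 0.025), and clone 2 at round 0 with 16 arrays (-0.61, adjusted p = 0.0398). Of all clones, 1728 and 2352 were called in these fits, in that order. Scaling turned ANPEP from 1 to 2 and 3 (0.091 and 0.013). Cy5 arrays turned ENPEP (0.47, 0.047 and 0.48 against round 0, -0.43 from 1 to 2, 0.43 from 2 to 3) and GGT1 clone 2 (-0.16 from 0 to 2, -0.22 from 1 to 3). Cy3 arrays turned ANPEP (0.16 and 0.12 from 0 to 2 and 3, 0.22 and 0.18 from 1 to 2 and 3) and GGT1 clone 2 at round 2 (0.10). Without the round 1, replicate 1, Cy3 array, ENPEP gave -0.13 and -0.26 from 1 to 2 and 3. Single spots turned ANPEP (0.16 from 1 to 2 on the lower, 0.15 from 2 to 3 on the higher), ENPEP (-0.01 from 1 to 3 on the lower, -0.21 and -0.32 from 1 to 2 and 3 on the higher) and GGT1 clone 2 on the higher (0.10 at round 2, -0.044 from 1 to 3).

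With 1 RNA left out, GGT1 clone 1 at round 0 ran from -1.42 to 0.87, and its change from -0.16 to 2.13 and -0.38 to 1.91 at rounds 1 and 3, turning without round 0, replicate 1 (0.33 to 2.62 at round 2, without a turn). From 1 to 3 it ran from -0.62 to 0.19. GGT1 clone 2 ran from -0.74 to 0.28 at round 2, -0.13 to 0.88 from round 0 to 2 and -0.26 to 0.37 from 1 to 3. ENPEP ran from -0.25 to 0.27 (1 to 3) and -0.39 to 0.13 (2 to 3). ANPEP ran from -0.45 to 0.33 (1 to 2), -0.54 to 0.25 (1 to 3) and -0.38 to 0.20 (2 to 3). Each of these turned with an RNA of its own rounds, and none was called. Signal over background was not used here, so the reliability of single ratios at the GGT1 spots is limited to the spot and dye gaps given.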

Other observations

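Deposited ratios of the GGT1 clones often equalled the log2 of a ratio of whole numbers no larger than 12, to 0.0006. This held for 9 of 21 readings of clone 1 (42.9%) and 8 of 31 of clone 2 (25.8%). It held for 0 of the 16 ANPEP readings small enough to be such a ratio (up to 3.58 in size) and for 11.6% of all readings of that size at listed features. No ENPEP reading was that small. Whether these readings stem from low signals was not tested.

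The replicates kept their order at ENPEP and ANPEP. Replicate 1 exceeded replicate K by 0.05, 0.16, 0.07 and 0.52 for ENPEP and by 0.33, 0.79, 0.58 and 0.43 for ANPEP at rounds 0 to 3. Of the 5537 tested features, 951 (17.2%) kept 1 order at all 4 rounds, and 551 (9.95%) had replicate 1 above K at all 4. The GGT1 clones had it higher at 2 of 4 rounds each.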
